A study of Drosophila melanogaster with 4 samples.

Results

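The bithorax complex of Drosophila melanogaster, with its Hox genes Ubx, abd-A and Abd-B, was described in a chromatin immunoprecipitation and sequencing (ChIP-seq) experiment on RNA polymerase II carrying phosphoserine 5 in the repeats of its C-terminal domain (Ser5P). The members were the 3 genes, covered by the FlyBase release 5 interval on 3R from 12450000 to 12850000, within which they lie at about 12482000 to 12798000. The clusters studied were those of the deposited lists that overlapped this interval by at least 1 bp. In ChIP replicate 1 they numbered 8 of 5091 clusters, in ChIP replicate 2 they numbered 9 of 4876, and in the combined list of the series 8 of 5309. The interval was selected on the positions of clusters in these same lists, which leave the genes free, so the values below are a description and carry no test.

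All samples came from CME-W1-Cl.8+ cells (Clone 8), a line that the labels trace to the dorsal mesothoracic disc, from which the wing forms, of male larvae in the third instar. No genotype, treatment or second cell type was compared. An affinity-purified rabbit antibody, ab5131, served for the 2 ChIP libraries, beside which 2 input DNA libraries were made, and a cluster list was used for each ChIP library. The labels do not tell whether the ChIP replicates were separate cultures, and their spread may be technical. Read depth is unknown, and the disc origin was not checked with marker genes, because the gene table used here follows release 6 and its positions were not carried over to release 5.

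Hox genes encode homeodomain transcription factors that give the segments of the body their identity. In the fly, Ubx sets the posterior thorax and the front of the abdomen apart and makes the haltere differ from the wing, abd-A acts in the abdominal segments, and Abd-B acts in the posterior abdomen and the genitalia. The genes lie along the chromosome in the order in which they act along the body. In cells where they are off, Polycomb group proteins are known to hold the complex silent, and in the wing disc proper Ubx is classically described as off. Serine 5 of the polymerase repeat is phosphorylated around the start of transcription, so Ser5P clusters mark places where polymerase has begun to transcribe or is held near a start site.

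No Ser5P cluster lay over the 3 genes in any of the 3 lists. The span of the genes held 0 clusters in each list. In replicate 1 the cluster-free stretch ran from 12479091 to 12806795, a length of 327.705 kb. In replicate 2 it ran from 12479089 to 12806808, a length of 327.72 kb. The mean over the replicates was 327.712 ± 0.0106 kb (SD, n = 2). In the combined list the stretch ran from 12479097 to 12806783, or 327.687 kb, and this was also the part that was free in all 3 lists. The replicates thus placed the left edge within 2 bp and the right edge within 13 bp of each other. The gap took up 81.9% of the interval length in each list and reached past the genes on either side. Its left edge lay 2.91 kb before the start of the gene span in both replicates, and its right edge 8.80 kb past the end in replicate 1 and 8.81 kb in replicate 2. These distances to the genes are approximate, because the gene span is known here only as about 12482000 to 12798000. From the midpoint of the interval the nearest cluster was 170.911 ± 0.00141 kb away on the left and 156.803 ± 0.00919 kb on the right (SD, n = 2).

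**Figure D1:**
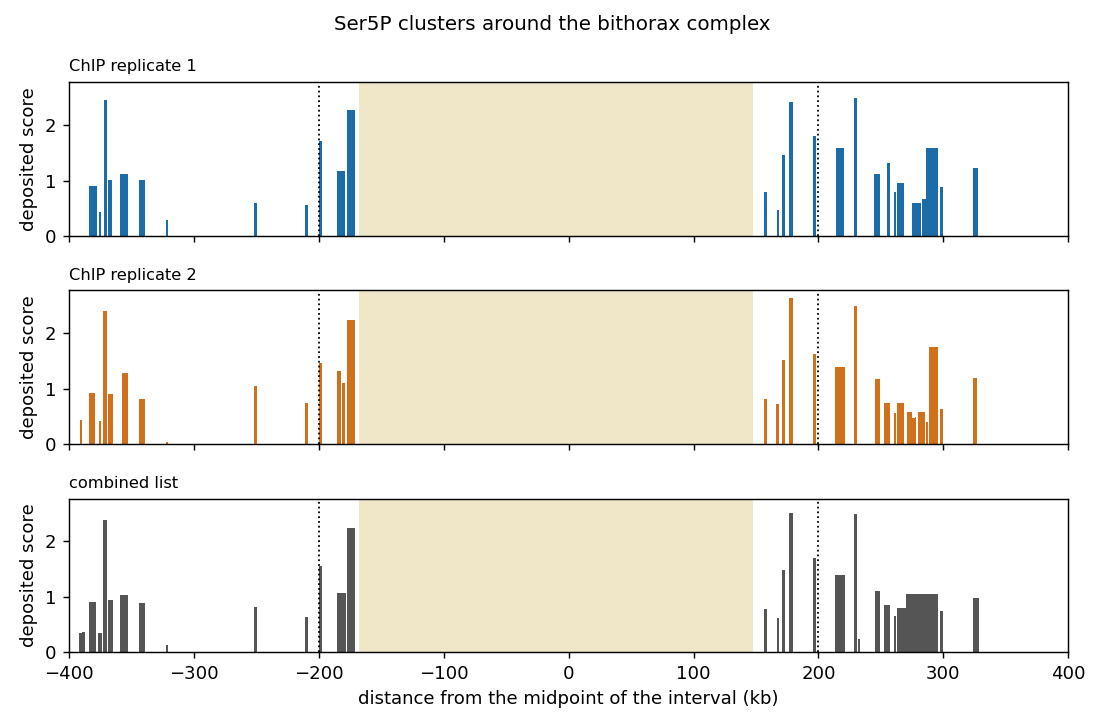
Ser5P clusters within 400 kb of the midpoint of the bithorax interval on 3R, one panel for each list. The x axis is the distance from the midpoint in kb, each bar is a cluster with its width to scale and its deposited score as height, the shaded band is the span of Ubx, abd-A and Abd-B, and dotted lines are the limits of the interval; the band holds 0 clusters in each list, and clusters stand close to it on both sides.

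The complex holds other annotated transcripts beside the 3 Hox genes. In the RefSeq gene table of release 6, used here for names and order only, 17 entries run from Ubx through Abd-B to lncRNA:CR46267. Of these, 6 are protein-coding genes, 8 are long non-coding RNAs (lncRNAs), 2 are miRNA genes and 1 is an antisense RNA. Ubx (gene 42034) comes first, at the side of the lower coordinates. It is followed by lncRNA:bxd, a transcript of the regulatory region that governs Ubx, and by Glut3, a gene named for glucose transport. abd-A (gene 42037) follows, and then the lncRNAs lncRNA:iab8 and lncRNA:iab4 with the miRNA genes mir-iab-4 and mir-iab-8, which are read from opposite strands of the same sequence and whose miRNAs are known in the fly to repress Hox genes of the complex. Abd-B (gene 47763) and lncRNA:CR46267 close the row. As far as release 5 has the same order, the entries between Ubx and Abd-B lay inside the free stretch as well. The sources used here give no expression values for any of these transcripts, and the lists give no level for a place without a cluster.

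On the left, 3 clusters in replicate 1 and 4 in replicate 2 stood between the limit of the interval and the gap. The outermost lay at the limit, which it crossed in replicate 1, from 12449989 to 12452210, and did not reach in replicate 2, from 12450001 to 12452238. Its deposited score was 1.71 in replicate 1 and 1.46 in replicate 2. Scores are the authors' own values and were set side by side with the other clusters of the same list only. The next was a single cluster of 5.74 kb in replicate 1, from 12464877 to 12470620, with a score of 1.17. Replicate 2 showed a pair of clusters at this place, the left one from 12464903 to 12467733 (score 1.33) and the right one from 12468458 to 12470769 (score 1.10). This split was the only difference in cluster number between the replicates inside the interval.

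The cluster at the left edge of the gap was the widest of the interval in both replicates and stood high in both lists. It ran from 12472289 to 12479090 in replicate 1 and from 12472339 to 12479088 in replicate 2, with widths of 6.80 and 6.75 kb. Its score was 2.27 in replicate 1, above those of 89.6% of the clusters on 3R, and 2.25 in replicate 2, above those of 89.9%. The median cluster on 3R was 2.54 kb wide in replicate 1 and 2.70 kb in replicate 2, with median scores of 1.16 in both. In the gene table, modSP, a serine protease gene of the Toll immune pathway, is the neighbour of Ubx on this side. Beyond it lie CG14907, Mettl4, CCT3, which encodes a subunit of the cytosolic chaperonin, and CG10324. Which of these genes the left clusters lie over was not determined, because positions of release 6 were not carried over.

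On the right, 5 clusters of the interval followed the gap in both replicates. The first was narrow and low. It lay from 12806796 to 12808906 in replicate 1, where it scored 0.79, and from 12806809 to 12808897 in replicate 2, where it scored 0.81. Only 31.6% and 32.8% of the clusters on 3R scored lower. The second, from 12816506 to 12818503 in replicate 1 and from 12816423 to 12818520 in replicate 2, scored 0.47 and 0.73 and was the lowest of the interval in both. The next to the right were higher. The third ran from 12820658 to 12823341 in replicate 1, with a score of 1.45, and from 12820584 to 12823345 in replicate 2, with a score of 1.52.

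The fourth had the highest score of the interval in each list. It ran from 12826268 to 12829862 in replicate 1, with a score of 2.42 and a rank of 85 among the 1105 clusters on 3R. In replicate 2 it ran from 12826451 to 12829976, with a score of 2.64 and a rank of 47 among 1079. The fifth ran from 12845675 to 12847883 in replicate 1 and from 12845650 to 12847845 in replicate 2, with scores of 1.81 and 1.63. The clusters just outside the limits of the interval lay from 12439001 to 12441050 and from 12864298 to 12870860 in replicate 1, and had scores of 0.57 and 1.59. The edges of the gap were thus unlike each other in both replicates, with a broad cluster of high score on the Ubx side and a narrow one of low score on the Abd-B side. This contrast depends on the clusters kept. With the upper 50% of each list by score, the first and second clusters on the right dropped out and the gap became 342 kb. Its right edge was then the third cluster, 2.68 kb wide in replicate 1 and 2.76 kb in replicate 2. The scores of that cluster were above those of 64.7% and 67.0% of the clusters on 3R. The neighbours of Abd-B on this side in the gene table are VhaM9.7-d, named for a subunit of the vacuolar proton pump, Actn3, named for an alpha-actinin, and AhcyL2.

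**Figure D2:**
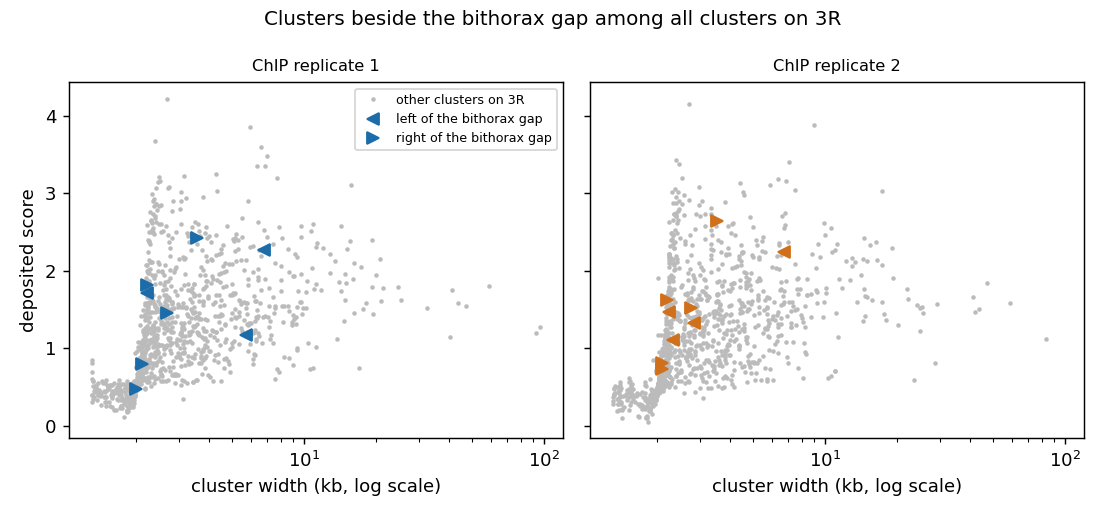
Width in kb (log scale) against deposited score for every cluster on 3R, one panel for each ChIP replicate, with the clusters of the bithorax interval as triangles that point to their side of the gap. The broad cluster at the left edge, at 6.80 kb and a score of 2.27 in replicate 1, lies among the wide and high clusters, while the first cluster on the right, at 2.11 kb and 0.79, lies near the narrow and low ones.

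The replicates drew these flanks alike. Of the 8 clusters of replicate 1 in the interval, 7 met a single cluster of replicate 2. The starts lay within 100 bp of each other in 6 of these 7 pairs and the ends in 6 of 7, and the largest differences were 183 bp at a start and 114 bp at an end, both at the highest scoring cluster on the right. The combined list held 8 clusters here, at the same places. Its highest score in the interval, 2.51, was again at that place, and the cluster at the left edge followed with 2.25. The making of the combined list is not stated, and it was not counted as a further replicate.

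Short as they are, the margins beside the gap were covered to a larger share than the whole arm. Clusters covered 14.8 of the 29.1 kb between the lower limit of the interval and the gap in replicate 1 (50.7%) and 14.1 kb in replicate 2 (48.6%). On the side of Abd-B they covered 12.6 of 43.2 kb (29.2%) in replicate 1 and 12.7 kb (29.3%) in replicate 2. The whole arm was covered to 16.1% in replicate 1 and to 16.0% in replicate 2. The limits of the interval were chosen with these clusters known, so the margins were not picked independently of them. Each margin also starts at the cluster that ends the gap, which raises its covered share by construction.

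The bithorax gap was among the longest gaps of the arm. Gaps were taken between consecutive clusters of a list, and their median length on 3R was 6.05 kb over 1103 gaps in replicate 1 and 6.29 kb over 1078 gaps in replicate 2. The bithorax gap was 54.2 and 52.1 times that length. Gaps of at least 50 kb numbered 128 on 3R in replicate 1, or 11.6% of all its gaps, 131 (12.2%) in replicate 2, and 130 of 1149 (11.3%) by the combined list, so a long gap as such was common. The bithorax gap ranked 2 in both replicates and 1 in the combined list. On average over the replicates, 0.183% of the gaps on 3R were at least as long. With just the higher scoring 50% of the clusters in a list, this share was 0.750% and the gap ranked 4 in replicate 1. It held 1.40% of the whole length of gaps on the arm in both replicates. At the mean density of 3R, 39.6 clusters per Mb in replicate 1 and 38.7 in replicate 2, a stretch of this length would hold 13.0 and 12.7 clusters. The interval was chosen for this length, so the ranks describe it and support nothing further.

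Set against the 5 large arms, the bithorax gap was one of several very long free stretches. It ranked 10 among 4907 gaps in replicate 1 and 10 among 4702 in replicate 2, while the combined list placed it 7 among 5081. Gaps of at least 50 kb made up 11.4% of these in replicate 1 and 12% in replicate 2, against 10.9% for the combined list. The gap next above it in length in both replicates lay on X, from 14144754 to 14473668 in replicate 1 (329 kb) and from 14143204 to 14473752 in replicate 2 (331 kb).

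**Figure D3:**
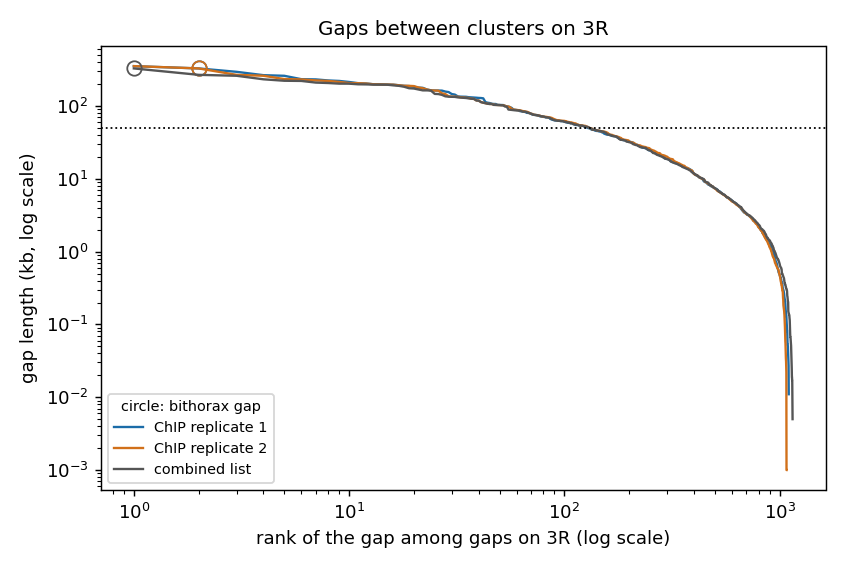
Length in kb of each gap between clusters on 3R against its rank, both on log scales, with a line for each list; the circle is the bithorax gap and the dotted line marks 50 kb. The circles stand at rank 2 in both replicates and at rank 1 in the combined list.

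The single longer gap of 3R in the replicates lay far from the complex, from 23790232 to 24142603 in replicate 1 (352 kb). It measured 352 kb in replicate 2 as well, and the bithorax gap was 0.930 times as long in both. In the combined list 1 cluster stood inside that stretch and left 209 kb of it as its longest free part, whereas no cluster of any list stood inside the bithorax gap. The bithorax interval was selected on these same lists, so being free in all 3 was known beforehand and does not set it apart. Of the 10 longest gaps of replicate 1 on 3R, 8 held no cluster of replicate 2, and 4, the bithorax gap among them, held no cluster of replicate 2 or of the combined list. Of the 10 longest gaps of replicate 2, 6 held no cluster of either other list, again with the bithorax gap among them. The combined list admits narrower clusters, its narrowest on 3R being 1001 bp wide, whereas replicate 1 had none on 3R below 1302 bp and replicate 2 none below 1305 bp. Whether width bears on the clusters that stood inside these gaps was not tested. Next in length after the bithorax gap were one from 18581566 to 18876002 in replicate 1 (294 kb) and one from 18608343 to 18875859 in replicate 2 (268 kb), which is the same place with a different left edge.

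The flanks of the bithorax gap were neither the richest nor the poorest among these long gaps. Within 50 kb on each side, clusters covered 29.4% in replicate 1 and 28.9% in replicate 2. Over the 10 longest gaps of each list the values ran from 11.9 to 53.5% in replicate 1, with a median of 33.2%, and from 9.53 to 59.1% in replicate 2, with a median of 29.2%. By this measure the bithorax gap came 7th of the 10 in replicate 1 and 6th in replicate 2.

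As a whole, the bithorax interval was thinly but not emptily covered. Clusters covered 6.84% of it in replicate 1 and 6.70% in replicate 2, a mean of 6.77 ± 0.0976% (SD, n = 2), and 7.25% in the combined list. When 3R was laid out in 69 windows of the same length, starting from the interval, the median window was covered to 13.9% in replicate 1 and to 13.5% in replicate 2. In replicate 1, 3 windows had less covered sequence than the bithorax interval, and in replicate 2 there were 2. Windows with no more covered sequence, the interval itself included, were 5.07% on average over the replicates, against 9.97% with overlapping windows in place of the tiled ones, 15.2% with the upper 50% of each list by score and 8.70% with clusters at least 2 kb wide. The lowest window, from 22050024 to 22450024, was covered to 5.71 and 5.97%. All covered sequence of the interval lay in its margins beside the gap. The windows next to it were covered to 20.6% on the left and 15.3% on the right in replicate 1, and to 18.1% and 15.5% in replicate 2.

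**Figure D4:**
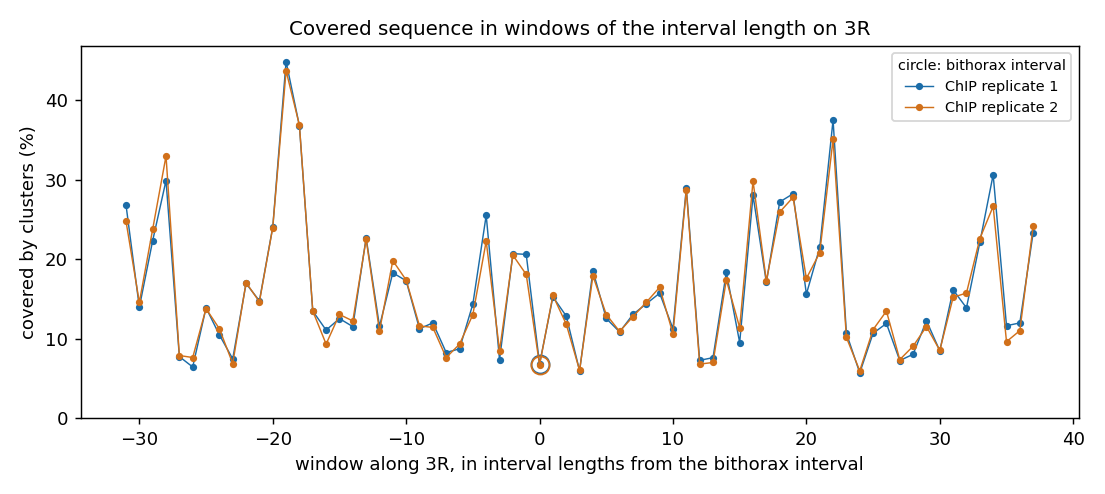
Percent of sequence covered by clusters in windows of the interval length along 3R, with the bithorax interval at 0 on the x axis (circles) and a line for each ChIP replicate. The bithorax interval, at 6.84 and 6.70%, stands near the lower end of the 69 windows, and both replicates trace nearly the same profile.

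Further out, the surroundings of the complex were uneven. On the left the next gap of at least 50 kb ran from 12329526 to 12398347 in replicate 1 (68.8 kb) and from 12329453 to 12398223 in replicate 2 (68.8 kb), with 5 and 6 clusters over 80.7 and 80.9 kb between it and the bithorax gap. On the right the next ran from 12977402 to 13210708 in replicate 1 (233 kb, rank 6 on 3R) and from 12976688 to 13210757 in replicate 2 (234 kb, rank 5). Between it and the bithorax gap, 16 clusters of replicate 1 and 19 of replicate 2 stood within 171 and 170 kb. A block of marked sequence beside Abd-B was therefore set between a pair of gaps that were each among the 10 longest of the arm. Over the first 1 Mb from each edge of the bithorax gap, clusters numbered 50 on the left and 38 on the right in replicate 1, covering 19.98 and 12.7%, and 51 and 38 in replicate 2, covering 18.9 and 12.4%.

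A stretch without a cluster is a stretch without a called region, and a level of Ser5P too low or too narrow for the caller would not be listed. The lowest score of a cluster on 3R was 0.108 in replicate 1 and 0.0454 in replicate 2. How well reads could be placed in the complex, the copy number of the locus in this line and the depth of the libraries were not tested here, and fewer cells with polymerase on the genes cannot be told apart from less polymerase per cell. The combined list also holds regions marked as depleted. On 3R these numbered 2 over all lists, 0 of them lay in the interval, and the nearest was 7.75 Mb away. So few regions say little about the interval either way.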

How the data were processed

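Cluster lists of ChIP replicates 1 and 2 and the combined list of the series were analysed, and groups came from the sample titles. No list of input DNA was used. The submitters' processing notes name Bowtie 0.12.7, an aligner. Per the file headers, positions follow FlyBase release 5. Caller, threshold and the making of the combined list are not stated. Each region carries a score deposited by the authors, on a scale that is likewise not stated.

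Regions with a positive score were taken as clusters. Overlapping or adjoining clusters were joined, and a gap is the stretch between consecutive joined clusters on an arm, arm ends left out. Covered sequence was counted inside the interval and in windows of its length. The members and lists were chosen with earlier results of these data known, and no test was run. Named genes were the 3 members, the miRNA genes of the complex and their neighbours in the RefSeq table. Named regions were the clusters of the interval, those nearest the gap and the longest gaps of 3R. A planned description of protein and promoter sequences was not made. The gap and coverage steps were tried on 20 simulated lists of 900 clusters, and the planted gap was recovered to the base in 20. The run was set to stop at any failure, and clusters were placed evenly at random. It therefore checked the code only and says nothing about the gaps of 3R. Python 3.11.15 was used with pandas 2.3.3, numpy 2.4.6 and matplotlib 3.10.9.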

Additional observations from a re-analysis of the deposited data

How the results depend on the processing

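No paired analysis was possible because the results come from no test and the input libraries have no list here. Of 60 alternative values for 8 results, 38 moved by no more than the spread between replicates (for cluster numbers, stayed within 1.5 times), and 22 moved further. None reversed, but lengths, counts, shares and distances have no direction that could reverse. The spread is a few bases for lengths, so small shifts count as moved. Much of the count of 38 was fixed in advance, so it does not measure stability. Cluster numbers aside, leaving out a replicate cannot count as moved, because either replicate lies within the SD of their mean. Taking regions of any sign of score left every value the same, with 0 depleted regions in the interval. The free span and the whole gap had the same length but were counted as separate results. With the upper 50% of each list by score, the free span and the whole gap both became 342 kb, covered sequence 4.73%, clusters 5.5 on average, the share of gaps on 3R at least as long rose from 0.183 to 0.750%, and the share of windows with no more covered sequence from 5.07 to 15.2%. With clusters at least 2 kb wide, covered sequence was 6.52%, the share of gaps 0.218% and that of windows 8.70%. Merging clusters within 1 kb gave a share of gaps of 0.216%, clusters found in both replicates 0.194%, and gaps of the 5 large arms 0.208%. The combined list gave 327.687 kb for span and gap, 7.25% covered, a share of gaps of 0.0870%, and distances of 170.904 and 156.784 kb to the nearest clusters (for the distances, chosen after seeing the data). The gene span alone gave a free length of 316 kb, 0% covered and 0 clusters, and sliding windows gave 9.97%. Fewer clusters lengthen gaps by construction; otherwise the cause was not tested. Leaving out each replicate gave 327.705 to 327.72 kb, 6.70 to 6.84% covered, 8 to 9 clusters, 0.181 to 0.186% of gaps, 4.35 to 5.80% of windows, 170.91 to 170.912 kb on the left and 156.796 to 156.809 kb on the right. Depth is unknown, so what it limits could not be given.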
